A study of Homo sapiens with 48 samples.

Results

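Gene expression was compared between THP-1 macrophages exposed to Baytube and unexposed control cultures at 6 h and at 24 h. The samples were chosen by title: 3 were labelled Baytube at 6 h and 3 at 24 h, which is 6 of the 48 samples of the series. The comparison samples were the 12 labelled as negative controls, 6 at each time. THP-1 is an established human monocytic cell line. All groups, the controls included, had been differentiated with the phorbol ester PMA, so the comparison is between macrophage-like cells of a tumour line that already carry the response to PMA. Exposed cells received 100 µg of material in 1 ml of RPMI medium and control cells received RPMI medium. No genotype or other agent differed between the groups in the labels. The labels do not say that replicates came from separate cultures, so the tests measure a spread between samples that may be technical. It was estimated within the groups of all 48 samples, not from the Baytube and control samples alone. RNA of each sample had been labelled with Cy5, Cy3 or a488, and the 3 Baytube replicates of each time used a different dye each. Controls used each dye for 2 samples per time.

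Baytube is the name of a commercial multi-walled carbon nanotube product. Macrophages take up fibres and particles through scavenger receptors and try to digest them in lysosomes. Long or tangled fibres can damage the lysosome membrane, which is a known trigger of the inflammasome, the complex that cleaves pro-interleukin-1 beta. Particle uptake in macrophages is also known for NF-kB driven cytokine and chemokine transcription and for an oxidative stress response through NRF2. These are the gene groups by which the comparison is described.

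Similarity between the deposited columns did not follow the sample labels. Samples whose columns lay 20 or 40 positions apart shared marks on the array surface, with a median surface correlation of 0.85 over 36 pairs. The 38 pairs labelled as one array had a median of -0.08. In gene values, measured as deviations from each gene's mean over 20399 genes, pairs 20 or 40 columns apart had a mean Pearson r of 0.63 (range 0.21 to 0.96), against -0.04 for pairs on one labelled array and -0.01 for the 66 pairs of one labelled group. Whether the sample names, the labelled array positions or neither are out of step with the columns was not tested. The samples are called by their labels, and none was moved to another group. If the sample names are out of step, the comparisons below would not be between Baytube and control. This limit holds for all named genes, lists and counts.

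Baytube samples of one time did not resemble each other. The 3 samples labelled Baytube at 6 h had pairwise correlations of -0.19 to -0.01, with a mean of -0.12. The 3 labelled Baytube at 24 h had -0.24 to -0.08, with a mean of -0.15. No pair of Baytube samples of one time deviated from the gene means in the same direction on balance, whereas controls at 24 h had a mean r of 0.20 and controls at 6 h of 0. Baytube 6 h replicate 1 correlated most with control 6 h replicate 4, whose column lay 20 positions away (r = 0.77). Baytube 6 h replicate 2 correlated at 0.75 with a sample labelled Fullerene at 24 h, and replicate 3 at 0.76 with one labelled tCNT at 24 h. At 24 h, replicate 1 correlated at 0.75 with a tCNT 24 h sample 18 columns away and at 0.75 with the Graphite 6 h sample 20 columns away, replicate 2 at 0.63 with a Fullerene 24 h sample and replicate 3 at 0.74 with an rCNT 24 h sample. These correlations describe columns that share genes, array type and processing, and carry no test.

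**Figure D1:**
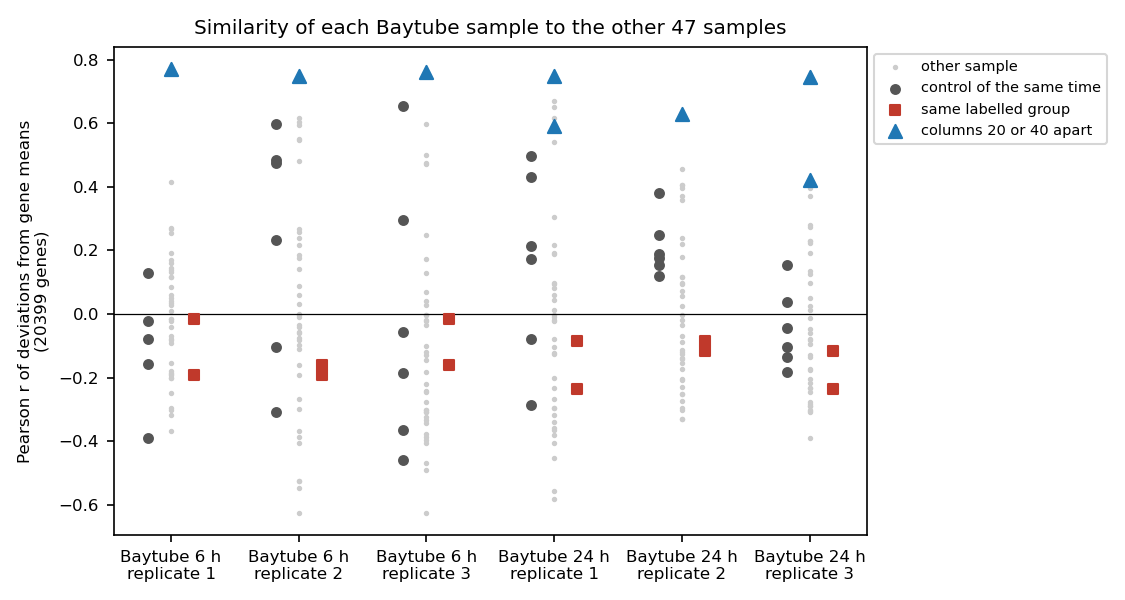
Pearson correlation of each Baytube sample with the other 47 samples, over the deviations of 20399 genes from their means. Blue triangles are samples 20 or 40 columns away (for Baytube 6 h replicate 1 this is control 6 h replicate 4), red squares are the same labelled group, dark circles are controls of the same time and grey dots all others. All red squares lie below 0, from -0.24 to -0.01, and the highest triangle of each sample lies at 0.63 to 0.77. For Baytube 24 h replicate 1 a grey dot at 0.75, 18 columns away, lies under the triangle.

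The labelled cell type was checked against markers. The 11 measured macrophage markers averaged 13.09 to 13.77 on the deposited log2 scale, which ran from 6.05 to 16.00, over the 18 samples. Promyelocyte and monocyte precursor markers averaged 9.81 to 11.55, lymphocyte markers 7.76 to 8.72, epithelial markers 7.13 to 7.74 and fibroblast markers 7.04 to 7.34. Of the 9 lymphocyte markers 6 had means under 8, as had 6 of 8 epithelial and 6 of 7 fibroblast markers. CD14, the lipopolysaccharide co-receptor that monocytes carry, was 14.80, 15.81 and 15.83 in Baytube at 6 h and 12.62 to 15.97 in controls. In bulk RNA, fewer cells of a type and less RNA per cell cannot be told apart.

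Spread differed between the groups. The median SD of a gene was 0.265 in Baytube at 6 h, 0.345 in controls at 6 h, 0.337 in Baytube at 24 h and 0.212 in controls at 24 h. An SD above 1 was found for 5.67%, 6.19%, 6.54% and 1.13% of genes in these groups. Among the 18 samples, control 6 h replicate 5 held the highest value of 24.7% of genes and the lowest of 17.7%. Baytube 24 h replicate 3 held 15.8% of the highest and 19.3% of the lowest, and Baytube 6 h replicate 3 held 11.9% and 6.12%. Of the 18 samples, control 6 h replicate 5 and Baytube 6 h replicate 3 had the strongest marks on the array surface, with surface SDs of 0.517 and 0.303. Baytube 24 h replicate 3 had 0.174. These 3 samples all carried a488. So did control 24 h replicates 5 and 6 and control 6 h replicate 6, with 0.086, 0.14 and 0.093. The samples 20 columns from control 6 h replicate 5 and Baytube 6 h replicate 3 carried Cy5. They were Graphite 24 h replicate 1 and tCNT 24 h replicate 1, with 0.539 and 0.316. The part of dye, surface marks or sample in the values was not tested.

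**Figure D2:**
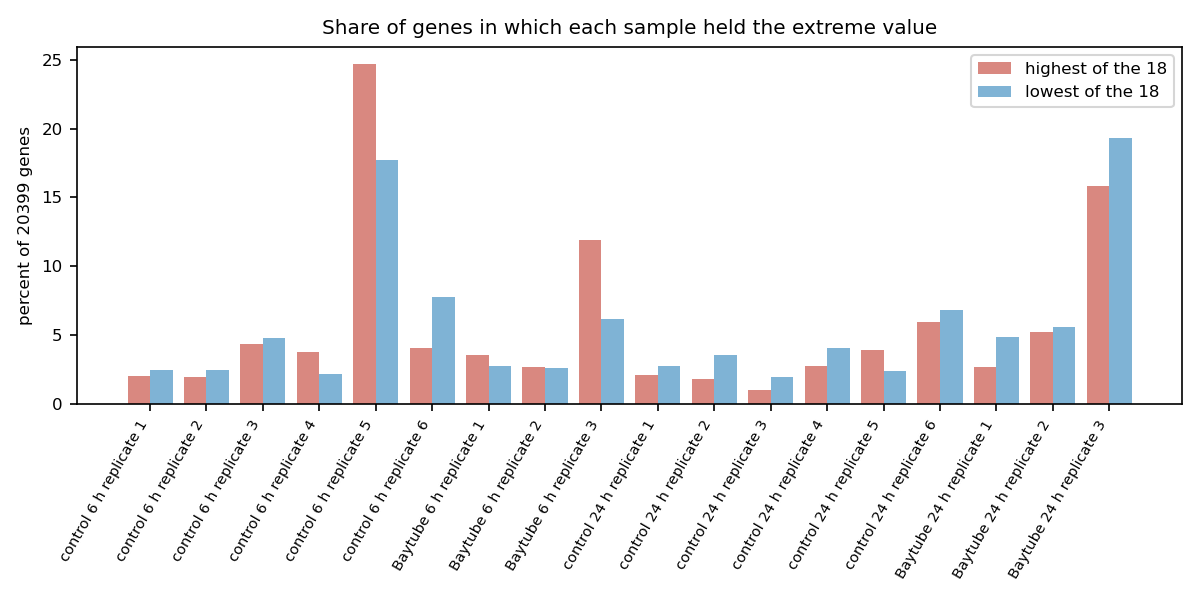
Percent of 20399 genes for which each of the 18 samples held the highest (red bars) or the lowest (blue bars) value. Control 6 h replicate 5, Baytube 24 h replicate 3 and Baytube 6 h replicate 3 stand above the other 15 samples in the red bars.

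No gene passed the adjusted threshold in any Baytube comparison. With limma and Benjamini-Hochberg adjustment over 20399 genes, 0 (0%) were below an adjusted p of 0.05 at 6 h, 0 (0%) at 24 h, 0 (0%) with both times pooled and 0 (0%) for the difference between the times. The lowest adjusted p was 1 at 6 h, 0.325 at 24 h, 1 for the pooled effect and 1 for the difference. At an unadjusted p under 0.05 there were 192 genes at 6 h, 957 at 24 h, 473 pooled and 499 for the difference. With no difference at all, a share of about 0.05 of the genes would be expected there, and none of these counts reaches it. The 24 h count passed that share in some alternative fits. It was 1109 when only the 18 Baytube and control samples were used, and 0 genes passed the adjusted threshold there. The typical standard error of a log2 fold change was 0.262 at each time and 0.185 pooled (medians over genes). Leaving out 1 sample changed the calls in 3 cases. Without Baytube 24 h replicate 1, 189 genes passed at 24 h, 184 of them higher, and without replicate 2, 16 higher genes passed. Without Baytube 6 h replicate 1, 1 gene passed at 6 h, PLAT, which encodes tissue plasminogen activator. PLAT was named after its values were seen: it had 7.00 in the left-out sample, 8.67 and 9.10 in the others and 6.88 to 8.20 in controls. A value that missed the threshold does not show that expression was equal.

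At 6 h the named genes whose groups did not overlap were PSMB8, with higher values in Baytube, and CSTA, JMJD6 and PARVA, with lower values, and none passed the threshold. At unadjusted p under 0.05, 156 genes (0.765%) were higher and 36 (0.176%) lower in limma. The 192 genes became 649, 428 and 113 without Baytube replicate 1, 2 and 3, and 427 and 329 without control replicate 4 and 5. All 3 Baytube samples lay above all 6 controls in 52 genes (0.255%) and below them in 34 (0.167%). Leaving out a sample can only raise these counts, which became 363 and 330 without Baytube replicate 1, 487 and 264 without replicate 2, and 128 and 246 without replicate 3. Without 1 control they were 66 to 197 and 56 to 117, highest without control replicate 4. With so few samples some genes separate by chance alone, and more do so when 1 is left out. That share was not computed, so the counts are a description and no sign of an effect. The named genes are those with the lowest p among genes of mean at least 8 and maximum under 15, 8 in each direction. Of these 16 genes, the 4 above were those without overlap. All 16 were picked by low p in this same comparison, so the lack of overlap is no separate support.

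PSMB8 is a catalytic subunit of the immunoproteasome, the form of the proteasome that prepares peptides for antigen presentation. Its log2 values were 14.24, 14.52 and 14.20 in Baytube at 6 h, against a lowest of 13.40, a median of 13.93 and a highest of 14.05 in controls. Each exposed sample was higher than each control. The log2 fold change was 0.53 ± 0.22 (SE), with an unadjusted p of 0.0203 and an adjusted p of 1 in limma. At 24 h PSMB8 was 14.28, 13.79 and 13.93 against 13.40 to 14.20, and the groups overlapped.

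CSTA encodes cystatin A, an inhibitor of cysteine cathepsins. It had 11.57, 11.62 and 10.35 in Baytube at 6 h, and 11.66, 12.23 and 13.87 as the lowest, median and highest control. Replicates 1 and 2 lay just under the lowest control, and replicate 3 lay more than 1 log2 unit lower. The log2 fold change was -1.23 ± 0.37, the lowest-p value among the named 6 h genes (unadjusted p 0.00199, adjusted p 1 in limma). Without Baytube 6 h replicate 3 it was -0.66. The 24 h samples had 12.34, 12.13 and 12.51 against a control median of 12.07.

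JMJD6, a nuclear oxygenase that hydroxylates lysine residues, showed the same arrangement. Baytube samples at 6 h had 10.88, 10.67 and 9.24 and controls 10.90 to 11.81, so that replicate 1 was just under the control range and replicate 3 far below it. The log2 fold change of -1.0 ± 0.31 was -0.44 without replicate 3.

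PARVA encodes alpha-parvin, which links integrin-bound kinase to actin in focal adhesions. The 3 exposed samples agreed closely at 6 h, with 9.92, 10.12 and 9.92, while controls had a lowest of 10.48, a median of 10.74 and a highest of 12.31. This gave -1.0 ± 0.35, with -0.76 the value nearest to 0 when 1 sample was left out. At 24 h the values were 10.49, 11.15 and 10.75 against a control median of 10.62, inside the control range.

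The other genes lower at 6 h overlapped with controls. ALAS1, the enzyme of the committed step of haem synthesis, had 12.10, 13.30 and 11.57 against controls from 12.25 to 14.91 (log2 fold change -1.09 ± 0.46). CRYL1, a dehydrogenase of the glucuronate pathway, had 9.63, 11.37 and 11.96 against 10.54 to 13.64 (-1.09 ± 0.48). For both, the highest control was replicate 5, which stood apart in many genes. AHNAK, a very large scaffold protein under the plasma membrane, had -0.95 ± 0.42, HNRNPM, a splicing factor, -0.55 ± 0.23, and MIA3, needed for the export of collagen from the endoplasmic reticulum, -0.31 ± 0.14.

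Among the named genes of lowest p with higher values at 6 h, the widest difference was in SLC16A10, a transporter of aromatic amino acids. It had 7.93, 10.09 and 10.35 in Baytube samples and 7.74, 7.90 and 9.88 as the lowest, median and highest control. Replicate 1 was near the control median, and replicates 2 and 3 were above all controls. The log2 fold change was 1.17 ± 0.48. It was 2.06 without replicate 1 and 0.60 without replicate 3. ZDHHC14, a palmitoyltransferase, had 11.26, 11.08 and 11.58 against 9.14 to 11.42 (0.74 ± 0.30). The zinc finger gene ZBTB25 had 0.58 ± 0.25, PRR32 0.50 ± 0.21, HAGHL 0.47 ± 0.19 and AFTPH, which takes part in clathrin-dependent transport, 0.42 ± 0.18.

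Changes above 1 on the log2 scale depended on single samples at 6 h. There were 25 genes higher and 158 lower by more than 1, and the 158 became 346, 457 and 29 without Baytube replicate 1, 2 and 3. Without control replicate 1, 2, 5 or 6 they became 74, 62, 405 or 55. The balance of the directions turned in 4 settings. There were 63 higher and 29 lower without Baytube replicate 3, 26 and 23 without that sample and control replicate 5, and 90 and 17 with the column set (samples 20 or 40 columns apart) as a random block. Controls carried 1 or 6 as the number of their sample code, and there were 76 higher and 38 lower against those of code 6 only, but 74 higher and 459 lower against those of code 1 only. Named genes lower by more than 1 did not all move alike. Without Baytube replicate 3, CSTA was -0.66 and ALAS1 -0.63, but CRYL1 was -1.57. PSMB3 and IDI1, the lowest members of their lists at 6 h, had their lowest Baytube value in replicate 3. PSMB3, a structural proteasome subunit, had 13.83, 14.74 and 7.59 in Baytube at 6 h, and control replicate 5 had 9.51 while the other controls had 14.06 to 15.07. IDI1, an enzyme of cholesterol synthesis, had 11.00, 13.33 and 7.16, with 8.29 in control replicate 5. The column sets accounted for 99.3% of the variance of PSMB3 and 96.5% of that of IDI1 over 48 samples. The labelled groups accounted for 23.3% and 23.7%. These shares are not adjusted for the number of sets or groups, so part of each, and for the labelled groups perhaps all, arises by chance alone.

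**Figure D3:**
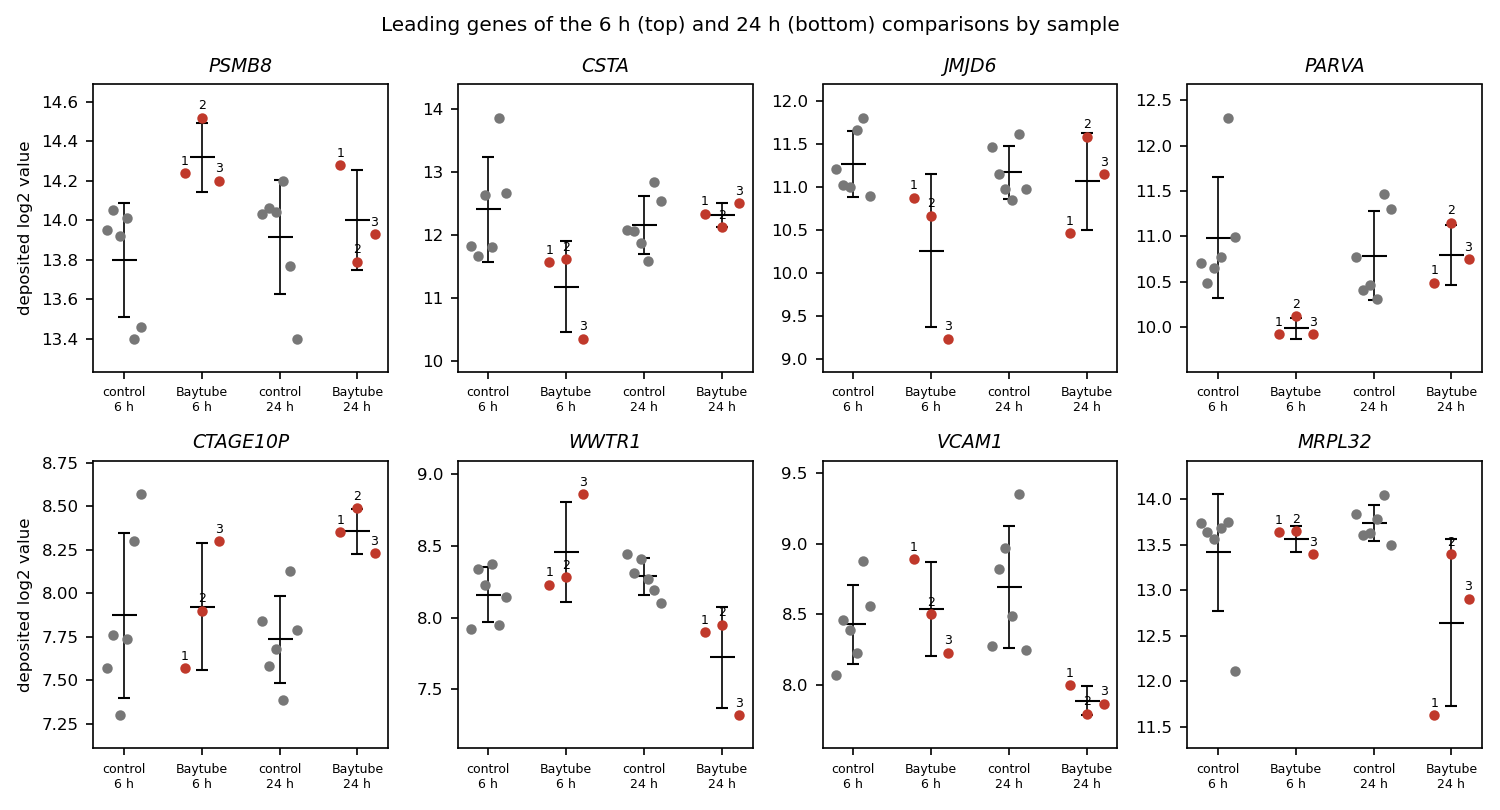
Deposited log2 values of 8 genes by sample, with mean and SD of each group (horizontal and vertical bars). Top row, genes of the 6 h comparison; bottom row, genes of the 24 h comparison; grey points are controls (6 per group) and red points Baytube samples numbered by replicate. At 6 h the Baytube points lie outside the control range for PSMB8, CSTA, JMJD6 and PARVA. At 24 h they do so for CTAGE10P, WWTR1, VCAM1 and MRPL32. The genes shown were picked for low p and lack of overlap in these comparisons, so their separation follows from the choice.

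At 24 h more genes had low unadjusted p-values than at 6 h, and most of those that were higher were dim. In the fit of all 48 samples the 24 h count was still below the share of 0.05 of all genes expected with no difference. In limma 696 genes (3.41%) were higher and 261 (1.28%) lower at unadjusted p under 0.05. Of the 696, 96.7% had a mean under 8, against 46.2% of all genes. When Baytube 24 h replicate 1 was left out, 186 of the 189 genes then called had a mean under 8, and in 178 of the 184 higher ones replicate 3 was above replicate 2. Among the 9425 genes with a mean under 8, Baytube 24 h replicate 3 held the highest of the 18 values in 18.7%. Control 6 h replicate 5 held it in 20.9% and Baytube 6 h replicate 3 in 11.1%. Without Baytube 24 h replicate 3 the 957 genes became 282. The count was 1709 without replicate 1 and 1503 without replicate 2.

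All 3 Baytube samples lay above all 24 h controls in 191 genes (0.936%) and below them in 224 (1.1%). These counts, which can only rise when a sample is left out, became 1261 and 1183 without Baytube replicate 1, 775 and 1194 without replicate 2, and 650 and 609 without replicate 3. Without 1 control they were 212 to 361 and 272 to 434, highest without control replicate 5. As at 6 h, the share that separates by chance alone was not computed, so the counts are a description. Of the 16 named genes of this comparison, 7 had groups that did not overlap. CTAGE10P, KLHL22 and NEK2-DT lay above, and WWTR1, FAM230C, MRPL32 and VCAM1 below. All 16 were picked by low p in this same comparison, so the lack of overlap is no separate support.

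WWTR1 encodes TAZ, a transcriptional coactivator of the Hippo pathway. At 24 h it had 7.90, 7.95 and 7.32 in Baytube samples, against 8.10, 8.29 and 8.44 as the lowest, median and highest control. The log2 fold change was -0.57 ± 0.16 (unadjusted p 0.00123, adjusted p 0.585 in limma), and leaving out 1 sample at a time gave -0.68 to -0.38. At 6 h the values were 8.23, 8.28 and 8.86 against 7.92 to 8.37, a fold change of 0.30 ± 0.16 in the other direction. The difference between the times was -0.86 ± 0.23, with an adjusted p of 1 in limma.

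VCAM1 is the adhesion molecule that binds integrin alpha-4 beta-1 on leukocytes. The 3 Baytube samples agreed closely at 24 h with 8.00, 7.80 and 7.87, while controls ranged from 8.25 over a median of 8.65 to 9.35. The log2 fold change was -0.80 ± 0.27, and it lay between -0.90 and -0.67 when 1 sample was left out. At 6 h the samples had 8.89, 8.50 and 8.23 against 8.07 to 8.88, so that the difference at 24 h was not seen there (0.11 ± 0.27). The difference between the times was -0.91 ± 0.38 (adjusted p 1 in limma).

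MRPL32, a protein of the large subunit of the mitochondrial ribosome, was the brightest of the lower genes. It had 11.63, 13.40 and 12.91 in Baytube at 24 h and 13.50 to 14.05 in controls. Replicate 1 was the lowest by more than 1 log2 unit, and the log2 fold change of -1.09 ± 0.36 was -0.60 without it. Control 6 h replicate 6, which shares its column set with this sample, had 12.12, and the other controls at 6 h had 13.57 to 13.75. The other sample of that column set, labelled Graphite at 6 h, had 12.74.

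The tyrosine kinase FER had 8.73, 8.26 and 7.39 against 8.65 to 9.10 (-0.80 ± 0.22), which has the lowest p of the named lower genes at 24 h (unadjusted p 0.00107, adjusted p 0.585 in limma). EPC1, a subunit of the NuA4 histone acetyltransferase complex, had 8.56, 7.89 and 7.24 against 8.31 to 9.10 (-0.76 ± 0.24). TMEM17, a protein of the transition zone of the cilium, had 8.36, 7.91 and 7.52 against 8.25 to 9.50 (-0.71 ± 0.23). In each of these genes replicate 1 was within the control range and replicate 3 the lowest. POFUT4, a protein O-fucosyltransferase, had -0.57 ± 0.19 in the same order of replicates. FAM230C, a non-coding RNA, had 8.10, 7.89 and 7.56 against 8.17 to 8.71, below every control.

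The named genes that were higher at 24 h had signals near 8 in controls. CTAGE10P, a pseudogene, had 8.35, 8.49 and 8.23 against a lowest, median and highest control of 7.39, 7.74 and 8.13, which gave 0.62 ± 0.22. KLHL22, an adaptor of the CUL3 ubiquitin ligase, had 8.30, 8.31 and 8.97 against 7.89 to 8.25 (0.49 ± 0.21). The divergent transcript NEK2-DT had 8.27, 8.44 and 8.81 against 7.34 to 8.10 (0.62 ± 0.27). These 3 genes were the ones in which each exposed sample exceeded each control. TLR5, the receptor for bacterial flagellin, had 7.69, 8.44 and 9.31 against 7.71 to 8.26, and its fold change of 0.54 ± 0.23 was 0.12 without replicate 3. IGIP, at 9.05, 8.33 and 10.96 against 8.17 to 9.23, went from 0.68 ± 0.30 to 0.07 without that sample. The remaining 3 were POFUT3 (0.52 ± 0.22), the pseudogene ZNF29P (0.63 ± 0.25) and NPIPA1 (0.77 ± 0.33). NPIPA1 belongs to a family of near-identical copies and CTAGE10P and ZNF29P to families with related sequences, so the assignment of their signal to 1 copy is uncertain.

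The gene with the lowest p of all was CIMIP6 at 24 h, named here after its values were seen. It had 7.05, 7.41 and 8.33 in Baytube samples and 6.50 to 7.00 in controls, with a log2 fold change of 0.78 ± 0.16 and an adjusted p of 0.325 in limma. The values of both groups lay near the lowest values of the scale, apart from replicate 3.

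Few genes stood outside the control range at both times. GATA1, a transcription factor of the red cell and platelet lineages, was above all controls at both times, and MMP13, a collagenase, below them. They were chosen after their values were seen, and how many genes would lie outside at both times by chance was not computed. GATA1 had 6.92, 7.69 and 7.00 against 6.65 to 6.89 at 6 h, and 6.97, 6.79 and 6.80 against 6.59 to 6.79 at 24 h, where the nearest values differed by less than the rounding. MMP13 had 6.71, 6.75 and 6.66 against 6.80 to 6.98, and 6.83, 6.76 and 6.86 against 6.91 to 7.04. The olfactory receptor gene OR5T3 was below all controls at 6 h and above them at 24 h. All values of these 3 genes were under 8, in the dim range of the scale.

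With both times pooled, 361 genes (1.77%) were higher and 112 (0.549%) lower at unadjusted p under 0.05 in limma. Their sum of 473 became 1075, 1009 and 145 without Baytube 24 h replicate 1, 2 and 3, and 309 without Baytube 6 h replicate 3. TMEM17 had the lowest p of the named lower genes, with -0.49 ± 0.16 (unadjusted p 0.00406, adjusted p 1). ERCC1, a nuclease subunit of nucleotide excision repair, had 13.43, 12.88 and 11.34 at 6 h against 12.75 to 13.59, and 12.91, 12.67 and 12.94 at 24 h against 12.26 to 13.77. Its pooled log2 fold change was -0.55 ± 0.21, and -0.28 without Baytube 6 h replicate 3. SLC35B1, a transporter of the endoplasmic reticulum membrane, was at 13.39, 13.48 and 13.22 and then at 13.53, 13.50 and 13.25. Controls of SLC35B1 had medians of 13.73 and 13.90, and the pooled difference of -0.36 ± 0.13 was the steadiest of the 16 values, between -0.42 and -0.32 when 1 sample was left out. TMEM187 (-0.46 ± 0.18) was below every control at 6 h with 9.28, 9.31 and 9.11 against 9.40 to 9.97. ROM1, NHSL1, EPC1 and FAM230C had -0.46 ± 0.17, -0.45 ± 0.17, -0.45 ± 0.17 and -0.35 ± 0.14.

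On the higher side of the pooled comparison, ANKZF1, a factor of ribosome-associated quality control, had 8.92, 9.01 and 9.50 at 6 h and 8.98, 9.30 and 9.32 at 24 h. Controls ranged from 8.42 to 9.69 and from 8.58 to 8.81, so that only the 24 h groups were apart (pooled 0.39 ± 0.17). MTMR1, a phosphoinositide phosphatase, had 9.51, 9.38 and 9.40 at 24 h against 8.35 to 9.21 and a pooled value of 0.50 ± 0.23. GBP1, an interferon-induced GTPase, had 10.06, 10.49 and 11.59 and then 10.62, 10.30 and 10.53 against control medians of 10.17 and 9.98 (0.43 ± 0.19). RPA1, the large subunit of the single-strand DNA binding complex of replication, had 0.44 ± 0.20 and SKA3, a protein of the spindle and kinetochore, 0.66 ± 0.30. The pooled values of PELI3, a ubiquitin ligase of interleukin-1 and Toll-like receptor signalling, and of B4GALNT1, an enzyme of ganglioside synthesis, were 0.35 ± 0.15 and 0.37 ± 0.17. POLR2J2, one of several near-identical genes for an RNA polymerase II subunit, had 0.56 ± 0.24.

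The inflammatory gene lists had no member past the threshold at either time. Across all genes, 10758 of 20399 log2 fold changes were above 0 at 6 h (median 0.012) and 9961 at 24 h (median -0.006). The 7 neutrophil-attracting CXC chemokines had a median of 0.21 at 6 h with 4 above 0, and of -1.41 at 24 h with 7 below 0. The 10 CC chemokines had 0.22 with 6 above 0 and -0.46 with 8 below 0. The 14 measured NF-kB feedback and target genes had 0.32 with 12 above 0 and -0.48 with 13 below 0. Members of the CXC and NF-kB lists varied together over the 48 samples, with mean r of 0.57 and 0.54. They are thus not separate observations. For the 19 immediate early genes the medians were 0.10 and -0.34, and for the 11 genes of TNF and IL6-type cytokines 0.07 and -0.31.

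These medians changed with single samples. CXCL1, a neutrophil chemokine, had 7.81, 12.94 and 14.67 in Baytube at 24 h, and 12.32, 14.15 and 14.74 as the lowest, median and highest control. Replicate 1 was far below all controls and replicate 3 near their top, which gave -1.96 ± 1.44. CXCL8, interleukin-8, had 9.35, 13.46 and 15.99 against 13.17 to 15.97 (-1.41 ± 1.16). Without Baytube 24 h replicate 1 the median of the CXC chemokines was -0.01, and without replicate 3 it was -2.43. The median of the NF-kB genes was 0.06 without replicate 1 and -1.05 without replicate 3.

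The same order of the 24 h replicates was seen in TNF, CCL2, NFKBIA and TNFAIP3, and not in every cytokine gene. TNF had 7.27, 9.74 and 10.81 against 9.32 to 10.91 in controls (-0.90 ± 1.05). CCL2, the main monocyte chemokine, had 9.87, 12.44 and 13.49 against 12.13 to 13.85 (-1.06 ± 0.82). NFKBIA, which encodes the inhibitor that NF-kB induces to limit itself, had 13.18, 14.83 and 15.50 against 14.89 to 15.94 (-0.95 ± 0.53). Replicate 1 was below the control range in each of these 3 genes. TNFAIP3, another feedback inhibitor, had 10.37, 11.64 and 12.72 against 12.04 to 12.66, with replicates 1 and 2 below and replicate 3 above all controls. In IL1A and in CXCL6, with 7.32, 10.18 and 9.79, replicate 2 was the highest, and CXCL5 had 9.61, 9.59 and 9.96.

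At 6 h the control group itself spanned a wide range in these genes. CXCL8 ranged from 9.91 to 15.98 in the 6 controls, TNF from 7.24 to 13.24 and CXCL1 from 9.48 to 15.97. The Baytube samples, with 14.68, 13.59 and 13.59 for CXCL8 and 10.99, 8.87 and 7.86 for TNF, lay inside these ranges. The highest TNF and CXCL1 values belonged to control 6 h replicate 4, the sample most like Baytube 6 h replicate 1.

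**Figure D4:**
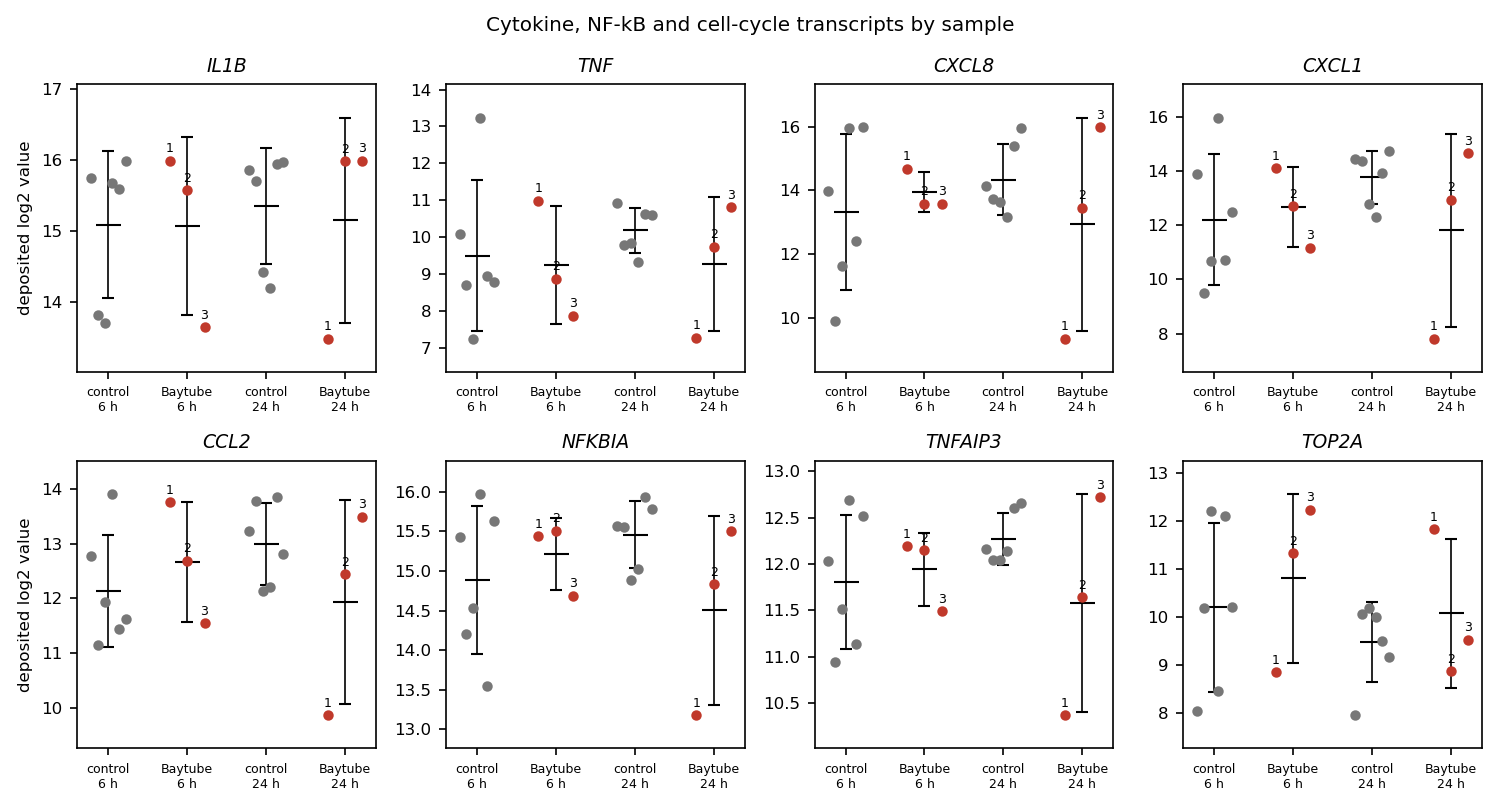
Deposited log2 values of 7 cytokine and NF-kB genes and the cell-cycle gene TOP2A by sample, with mean and SD per group; grey points are controls and red points Baytube samples numbered by replicate. At 24 h, Baytube replicate 1 lies lowest and below every control for IL1B, TNF, CXCL8, CXCL1, CCL2, NFKBIA and TNFAIP3, and above every control for TOP2A; the scale ends at 16.00.

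No gene of the inflammasome route passed the threshold, and single samples lay outside the control range in several. IL1B, the substrate of the inflammasome, had 15.99, 15.58 and 13.65 at 6 h and 13.49, 15.98 and 15.99 at 24 h, and controls reached 15.98. At 24 h replicate 1 was below the lowest control, which had 14.20. With values at the upper end of the scale, a further increase could not have been seen. NLRP3, the sensor that responds to lysosome damage, had 12.98, 12.10 and 12.59 at 6 h against 12.09 to 12.92 (0.08 ± 0.26), and 12.18, 12.53 and 12.26 at 24 h against 12.38 to 12.89 (-0.33 ± 0.26). CASP1, the protease of the complex, had 0.12 ± 0.42 and 0.28 ± 0.42. GSDMD, the pore-forming protein it cleaves, was 11.05, 10.98 and 11.58 at 6 h against 10.12 to 11.02, the highest fold change of the list (0.55 ± 0.30). CASP5, an inflammatory caspase that senses lipopolysaccharide, had the lowest, with 12.47, 12.16 and 11.58 against 12.46 to 12.70 (-0.47 ± 0.23, unadjusted p 0.0497, adjusted p 1 in limma), and replicates 2 and 3 were below all controls. IL1A, interleukin-1 alpha, had 7.03, 9.57 and 8.81 at 24 h against 8.21 to 9.90 (-0.80 ± 0.95), and -1.51 to -0.13 on leaving out 1 sample. The 12 inflammasome genes had medians of 0.10 and -0.02, and the 8 genes of the interleukin-1 family 0.06 and -0.14.

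Uptake and lysosome genes had medians close to 0. The 12 scavenger receptor and particle uptake genes had 0.07 and 0.02, the 17 measured lysosome genes 0.07 and -0.06, and the 11 cathepsins 0.09 and 0.07. MSR1, the class A scavenger receptor, had 12.35, 12.55 and 12.28 at 6 h against 10.71 to 14.01, and 12.99, 13.43 and 12.77 at 24 h against 12.04 to 14.86. CD36, a class B scavenger receptor, had 0.19 ± 0.35 and -0.16 ± 0.35, and MARCO, a receptor for unopsonised particles, 0.24 ± 0.31 and -0.16 ± 0.31. For CTSB, the lysosomal cathepsin B, the values were 12.61, 13.32 and 13.73 at 6 h against 12.01 to 13.29, with 0.54 ± 0.36. CTSK, cathepsin K, had 10.49, 12.65 and 12.80 against 9.70 to 12.70 at 6 h (1.21 ± 0.64) and 10.56, 8.78 and 9.96 against 9.77 to 11.07 at 24 h (-0.63 ± 0.64).

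The oxidative stress, metal and aryl hydrocarbon receptor lists had no member past the threshold, and medians between -0.15 and 0.08. The 15 measured NRF2 targets had medians of -0.02 and -0.01, with 7 of 15 above 0 at each time. HMOX1, haem oxygenase 1, had 14.72, 13.84 and 15.09 at 6 h against 13.64 to 15.98 (-0.47 ± 0.40). The fold changes of NQO1, GCLM and SQSTM1, all NRF2 targets, were -0.24 ± 0.42, 0.04 ± 0.37 and 0.27 ± 0.26 at 6 h and 0.17 ± 0.42, -0.26 ± 0.37 and -0.39 ± 0.26 at 24 h. The 10 measured metallothionein and zinc exporter genes had -0.07 and 0.04, and the 7 aryl hydrocarbon receptor targets -0.15 and 0.08. Of these 7, 0 were above 0 at 6 h and 5 at 24 h. The lowest members at 6 h were SRXN1, a sulfiredoxin, with 11.43, 12.64 and 6.58 against 6.81 to 13.14 (-1.06 ± 1.32), and MT1B, a metallothionein, with 10.19, 11.93 and 7.19 against 8.45 to 11.91 (-0.93 ± 1.02). Replicate 3 was below all controls in both. CYP1B1, a cytochrome P450 of that list, had 14.41, 12.29 and 12.27 at 6 h against 10.56 to 15.97.

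Proliferation genes were the list with the highest median at both times, without a member past the threshold. All 23 were above 0 at 6 h (median 0.56) and 21 of 23 at 24 h (median 0.47). Members varied together over the 48 samples, with a mean r of 0.71, so they are not separate observations. The list's mean level was 10.57, 11.97 and 12.64 in Baytube at 6 h, within the 9.92 to 12.45 of controls apart from replicate 3. At 24 h it was 12.26, 9.93 and 11.00 against 9.90 to 11.17. RRM2, the regulated subunit of ribonucleotide reductase, had 9.74, 11.72 and 12.07 at 6 h against 8.68 to 12.41 (1.07 ± 0.85), and TOP2A, a topoisomerase of dividing cells, had 8.85, 11.33 and 12.23 against 8.04 to 12.20 (0.61 ± 0.92). The replicates were not alike: the median at 6 h was -0.04 without replicate 3 and 1.30 without replicate 1, and that at 24 h was -0.25 without replicate 1.

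Interferon-stimulated genes had 19 of 22 measured members above 0 at 6 h, with a median of 0.48. At 24 h, 6 of 22 were above 0, with a median of -0.14. The list's mean level at 6 h was 11.78, 12.48 and 12.56 in Baytube, within the 10.83 to 12.64 of controls. The lowest of these controls was replicate 4. Members varied together over the 48 samples, with a mean r of 0.42, so they are not separate observations. CXCL10, an interferon-induced chemokine, had 10.47, 11.57 and 12.01 at 6 h against 8.42 to 12.14 (1.14 ± 0.62). At 24 h it had 8.86, 9.42 and 11.46 against 10.07 to 12.11 (-1.03 ± 0.62), with replicates 1 and 2 below all controls. The difference between the times was -2.17 ± 0.87 (adjusted p 1 in limma). IFIT1, which binds viral RNA, had 0.61 ± 0.52 and -0.67 ± 0.52. The list median at 6 h stayed between 0.29 and 0.66 on leaving out 1 sample, and at 24 h it ran from -0.45 to 0.15.

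Fibrosis-linked macrophage factors had 0 and -0.02. TGFB1, the main profibrotic cytokine, had 11.48, 12.85 and 14.36 at 24 h against 11.84 to 12.69 (0.70 ± 0.75), and OSM, oncostatin M, had 7.55, 8.01 and 9.97 against 9.24 to 10.33 (-0.99 ± 0.56). SPP1, osteopontin, and MMP9, a gelatinase, reached the end of the scale in most samples, with 15.98, 15.98 and 15.58 for SPP1 at 24 h. Actin and adhesion genes had 0.03 and 0.33, the latter 0 without Baytube 24 h replicate 3, whose list level was 14.07 against 12.95 to 13.32 in controls. The column sets accounted for 96.0% of the variance of that list level and the labelled groups for 28%, again without adjustment for their number. CD68, a lysosomal glycoprotein of macrophages, was likewise 14.86 in that sample and 12.99 and 13.36 in the other two.

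Lists of the general cell state were also close to 0. At 6 h and 24 h the medians were -0.02 and 0.11 for the phagocyte NADPH oxidase, 0.01 and -0.21 for matrix metalloproteinases and their inhibitors, 0.05 and 0 for endoplasmic reticulum stress, -0.04 and -0.10 for cytosolic chaperones and 0.06 and 0.07 for p53 targets. Metabolic lists had -0.10 and -0.02 for cholesterol synthesis, 0.10 and 0.15 for cholesterol efflux, 0.16 and 0.06 for hypoxia-inducible and glycolytic genes and 0.16 and -0.02 for oxidative phosphorylation. Proteasome subunits had 0.02 and -0.02. HSPA5, the main chaperone of the endoplasmic reticulum, had 12.17, 11.89 and 8.51 at 6 h against 9.17 to 13.03, and 12.05, 11.58 and 10.50 at 24 h against 11.83 to 12.83. Its log2 fold changes of -1.03 ± 0.70 and -1.09 ± 0.70 had the same sign at both times, with replicates 2 and 3 below all controls at 24 h. DDIT3, a transcription factor of the same stress response, had 0.06 ± 0.31 and -0.28 ± 0.31. HMGCS1, an enzyme of cholesterol synthesis, was 12.19, 11.93 and 12.17 at 24 h against 12.18 to 13.18, with -0.63 ± 0.37. Marker lists had medians of 0.02 and 0.12 for macrophages, -0.16 and -0.05 for precursors, 0.06 and 0.08 for lymphocytes, 0.11 and -0.11 for epithelium and 0 and -0.06 for fibroblasts.

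**Figure D5:**
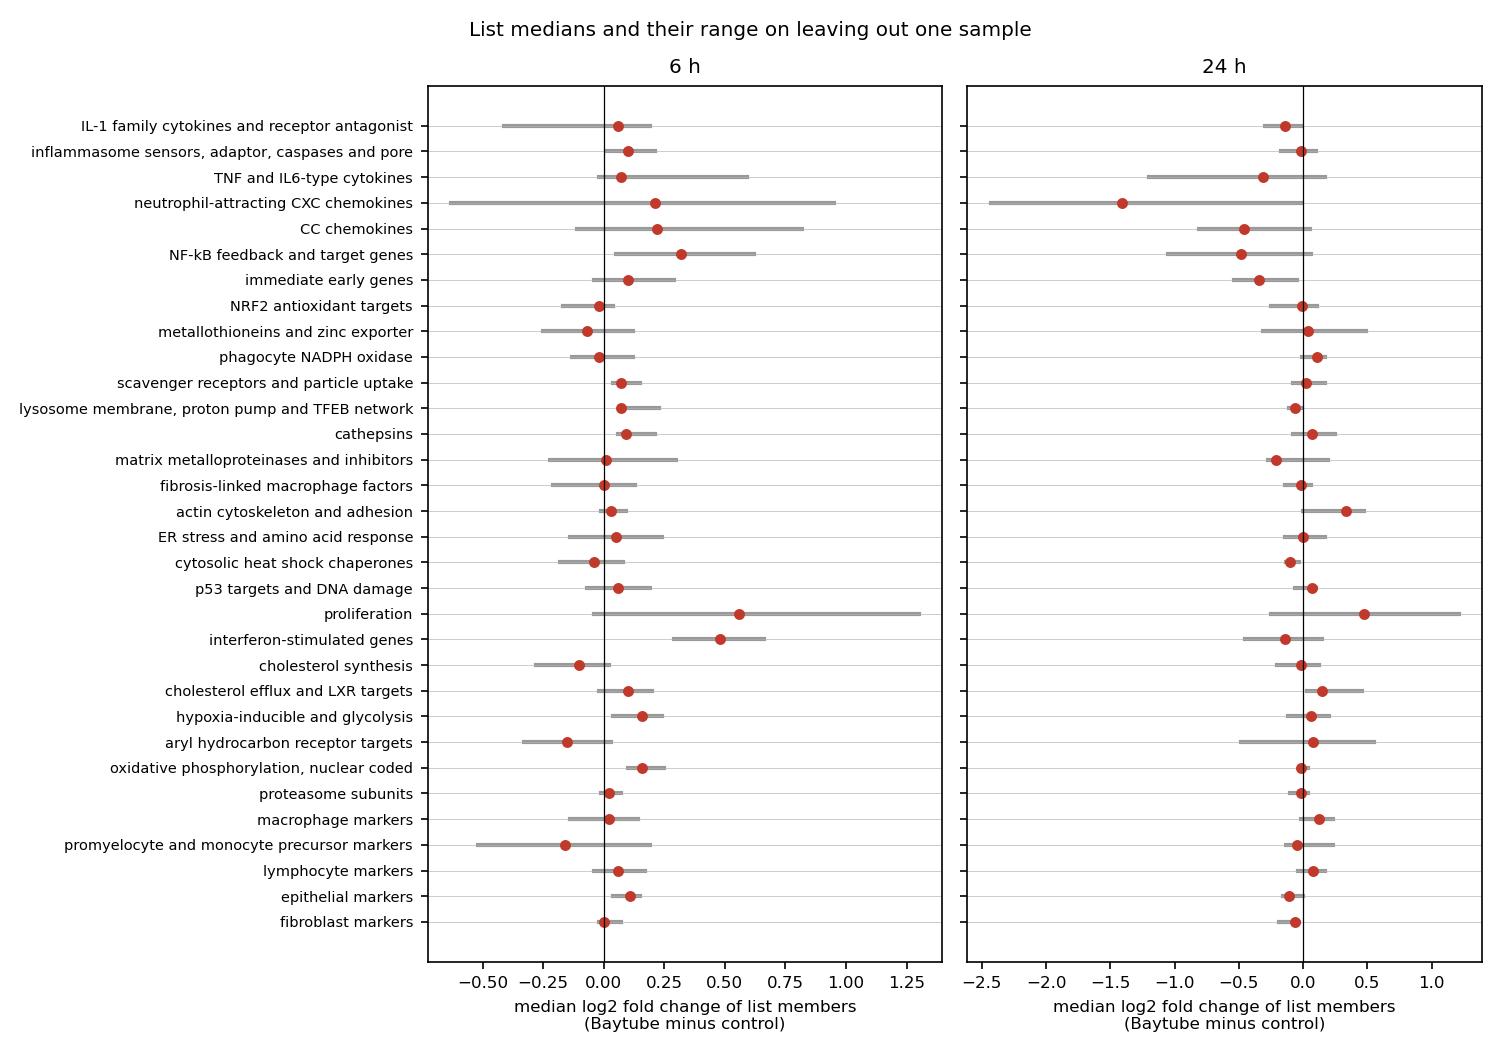
Median log2 fold change (Baytube minus control) of the members of 32 gene lists at 6 h (left) and 24 h (right), on separate horizontal scales. Points are the medians over all samples and grey bars run from the lowest to the highest median when 1 Baytube or control sample was left out. The bar of the CXC chemokines at 24 h reaches from -2.43 to -0.01, and that of proliferation genes crosses 0 at both times.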

How the data were processed

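Microarrays measured RNA of all 48 THP-1 samples of the series. The deposited values are log2 values of 45220 features, from 6.05 to 16.00, with sample medians of 7.68 to 7.70. The authors used R 2.3 and limma, per the submitters' processing notes. Background correction and normalisation are not given in the sources used here. Columns were assigned by name to the labelled samples, and 0 belonged to none. The number of arrays limits the precision.

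For 35268 features with 1 symbol, the feature with the highest mean stood for each of 20399 symbols. The other 9952 features, with no symbol or with several, were left out. Symbols of 35128 features were updated through a RefSeq table. limma 3.58.1 in R 4.3.3 was run on 48 samples with a coefficient per group (14) and fixed terms for dye (32 residual degrees of freedom), and p-values were Benjamini-Hochberg adjusted over all genes at 0.05. Errors of fold changes are standard errors. The pooled effect is the mean of both times. Surface marks were read from the order of features in rows of 85, with medians over 11 by 11 spots.

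Named genes were the 8 of lowest p per direction and comparison (mean at least 8, maximum under 15), 39 core genes and the extremes of 32 gene lists. One gene that this rule names at 6 h is not reported here. Samples, genes and lists were chosen with earlier results of these data known. Same-letter samples (12 pairs) had deviations correlated at 0.01 on average, from -0.63 to 0.65, and same-number samples (6 pairs) at 0.08, from -0.34 to 0.67, so no pairing was used. Alternatives were other blocks, scalings, filters, control subsets, removal of the surface component and leaving out samples. Leaving out Baytube 6 h replicate 3 together with control 6 h replicate 5 was chosen after seeing the data.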

Additional observations from a re-analysis of the deposited data

Results flagged for a closer look

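There were 168 combinations of a named gene and a control group of 6. In 23 of them the highest or lowest control stood farther from the others than Dixon's limit at the 95% level. The rate of about 5% that this limit allows holds for independent, unselected values. Part of these genes were picked by low p with these controls, and all share the same samples. The count is therefore a description and carries no test. Control 6 h replicate 5 accounted for 7 of them. In that sample PARVA was 12.31 (the others 10.48 to 10.99), NPIPA1 9.58 (7.89 to 8.41), ANKZF1 9.69 (8.42 to 8.84) and MARCO 8.30 (7.32 to 7.61). It was low in FER at 8.08 (8.74 to 8.94), SLC35B1 at 13.06 (13.68 to 13.93) and MT1X at 11.01 (12.61 to 13.40).

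Control 24 h replicate 6 stood apart in 4 genes: MTMR1 at 8.35 and ERCC1 at 12.26 were low, TMEM187 at 10.22 and GCLM at 14.19 were high. Control 6 h replicate 6 did so in 3, with IGIP at 9.45 and NHSL1 at 9.28 high and MRPL32 at 12.12 low. Control 6 h replicate 4 had PTGS2, the inducible cyclooxygenase, at 13.65 against 8.16 to 9.73 in the others, and SPP1 at 15.01.

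TMEM17, among the lower genes at 24 h and pooled, was 9.55 in control 6 h replicate 1 and 9.50 in control 24 h replicate 4. These 2 samples lie 20 columns apart, and no other control exceeded 8.61. ROM1 was 9.19 in the first and 9.14 in the second. SPP1 was 13.89 in control 24 h replicate 4. SLC16A10 was 9.88 in control 6 h replicate 3 and 9.28 in control 24 h replicate 2, where IL6 was 9.85.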

How the results depend on the processing

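Under the 35 alternatives, 0 genes passed at 6 h, at 24 h, pooled and for the difference between the times, except when 1 Baytube sample was left out. Those settings gave 0 to 1 gene at 6 h and 0 to 189 at 24 h: 1 without Baytube 6 h replicate 1, 189 without Baytube 24 h replicate 1 and 16 without Baytube 24 h replicate 2. Of the 16, 12 were among the 189. The 5 lower genes of the 189 were FER, LRRC75A, MEGF6, POFUT4 and RASL11B, named after their values were seen. In 138 of the 184 higher genes the left-out sample lay within the control range. Neither replicate block (the letter of the sample code or the title number) changed a call: 0 genes passed at both times, with 954 and 1003 at an unadjusted p under 0.05 at 24 h in limma. The labelled array had a consensus correlation of -0.0224 and the column set of 0.722. With the column set as a block, 322 genes at 6 h and 1445 at 24 h had an unadjusted p under 0.05, and 0 passed. Of 1680 alternative values of the 48 named lowest-p differences, 1 changed sign: AFTPH at 6 h was -0.05 with the mean of a gene's features, for which the cause was not tested. Without Baytube 24 h replicate 1, TLR5 (0.96), FER (-1.10) and POFUT4 (-0.85) passed. Of 19524 values of other named genes and lists, 236 moved by more than the replicate SD. Without Baytube 6 h replicate 3 and control 6 h replicate 5 together, genes lower by more than 1 at 6 h fell from 158 to 23. Genes near 16.00 cannot show an increase, and 46.2% of genes, with means under 8, lie in the dim range.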
